A study of Mus musculus with 4 samples.

Results

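The interferon-stimulated genes described here are 38 antiviral and interferon signalling genes of the mouse, chosen by name, with chemokines and guanylate-binding proteins left out. A probe set was used where the platform table gave a member as its single gene symbol. By that rule 35 of the 38 members had a probe set, 60 probe sets in all. Of these members, 30 passed a filter on dim signals and were among the 12425 genes tested. The cells were gamma delta intraepithelial lymphocytes, T cells that live between the cells of the gut lining, sorted from the colon of conventionally raised C57b/6 mice. There were 2 arrays from untreated mice and 2 from mice given DSS, dextran sulfate sodium, which damages the lining of the colon, at 2% for 5 days and then normal water for 3 more. All 4 RNA samples were amplified before labelling. The labels leave the origin of the replicates unstated (animals, pools or repeat sorts). P-values here therefore cover the spread of these samples alone, and that spread may be technical.

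Interferons are secreted proteins that signal through cell surface receptors, the Janus kinases and the STAT transcription factors. Types I and III act through a complex, with IRF9 as its DNA-binding subunit, that binds the interferon-stimulated response element (ISRE). Type II interferon, which T cells and natural killer cells make, acts through the gamma-activated site (GAS). The induced genes block viral replication at many steps, sense viral nucleic acid and feed back on the pathway. Intestinal epithelium and the lymphocytes within it are both known to mount such responses.

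The promoter sequences of 8 measured members are printed because they hold letters that match the ISRE core or the GAS. Sequences are from RefSeq, build GRCm38.p6, and each is 60 bases that lie upstream of a listed gene start, read 5′ to 3′ on the gene's strand, with motif matches in capitals. The first 5 hold the ISRE core, searched as GAAA and GAAA with any 2 bases between them, on either strand, and the last 3 hold the GAS letters TTCNNNGAA. They are Ifit1 (chr19:34640769-34640828, plus strand), Ifit3 (chr19:34583365-34583424, plus), Oas1a (chr5:120907526-120907585, minus), Oas3 (chr5:120777700-120777759, minus), Rsad2 (chr12:26456538-26456597, minus), Ifit2 (chr19:34550444-34550503, plus), Irf1 (chr11:53769898-53769957, plus) and Irf8 (chr8:120736170-120736229, plus).
Ifit1: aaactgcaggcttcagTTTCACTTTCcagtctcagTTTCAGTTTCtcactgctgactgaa
Ifit3: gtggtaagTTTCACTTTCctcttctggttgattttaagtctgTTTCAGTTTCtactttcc
Oas1a: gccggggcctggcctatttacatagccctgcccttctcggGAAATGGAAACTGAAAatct
Oas3: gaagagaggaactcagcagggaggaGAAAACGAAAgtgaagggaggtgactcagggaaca
Rsad2: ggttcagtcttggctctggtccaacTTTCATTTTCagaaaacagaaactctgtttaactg
Ifit2: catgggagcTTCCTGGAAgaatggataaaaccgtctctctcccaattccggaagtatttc
Irf1: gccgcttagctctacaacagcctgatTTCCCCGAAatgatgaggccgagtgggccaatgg
Irf8: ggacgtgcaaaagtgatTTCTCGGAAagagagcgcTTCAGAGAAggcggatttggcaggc

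Promoters, 250 bases before to 50 after a start, were in the table for 28 of the 38 members. The ISRE core was found in a promoter of 11 of those 28 members (39.3%) and of 1079 of all 27025 genes (3.99%). The GAS letters were found for 10 of the 28 members (35.7%) and for 2582 of all genes (9.55%). Overlapping matches were each counted, as in Oas1a. A match is a description of the letters and was not tested for binding.

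No member passed the test between untreated and DSS samples, and the estimates went both ways. Across the 30 tested members the median difference was 0.20 on the log2(signal + 32) scale, DSS minus untreated, against -0.07 over all 12425 genes. The middle part of the members, from the 25th to the 75th percentile, ran from -0.22 to 0.63, and all tested genes ran from -0.52 to 0.42. Estimates were higher in DSS samples for 18 members and lower for 12, of which 6 (Ifit3, Oasl1, Adar, Irf7, Irf9 and Isg20) turned higher after scaling to a common median. Limma with Benjamini-Hochberg adjustment over all genes called 0 of 30 members, where it called 0% of all genes, and the smallest adjusted p of a member was 0.648. At an unadjusted limma p under 0.05, 3 members (Ifit2, Mx1 and Oas3) were higher and 0 were lower, against 3.71% and 3.81% of all genes. Each of these 3 had an untreated signal below the median of its array, so the sizes depend on the pseudocount. Mx1 went from 1.69 to 1.91 and Oas3 from 1.45 to 1.61 with a pseudocount of 8.

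Both DSS arrays lay above both untreated arrays for 8 of the 30 members (26.7%), against 17.2% of all tested genes. These were Ifit2, Oas3, Ifih1, Irf8, Samhd1, Mx1, Xaf1 and Sp100. The DSS arrays lay below for 3 members (10%), Dhx58, Irf9 and Ifi35, against 23.8% of all genes, with Ifi35 counted on its brightest probe set while another was higher. Scaling the arrays to a common median turned these counts into 16 above and 1 below, and the shares of all genes into 30.8% and 12.5%. The same scaling moved the median of all genes from -0.07 to 0.25, and the members' median stood 0.27 above that of all genes as deposited and 0.28 above it after this scaling. That excess was 0.098 with a gene's kept probe sets averaged, 0.081 with every kept probe set on its own and 0.15 with the filter on all 4 arrays. With that filter 21.7% of 23 members lay above, against 18.2% of all genes. With every kept probe set on its own, 8 members had at least 1 below, adding Adar, Cmpk2, Rsad2, Samhd1 and Tor3a to the 3. Counted in that way, by probe set, 23.1% of all kept probe sets lay below. A separation of at least 2-fold in every pair of arrays was seen for 1 member, Ifit2, in the higher direction, and for 0 in the lower, against 2.18% and 2.38% of all genes. Filtering bears on these counts, since passing through the DSS arrays alone favours genes that are higher there, such as Ifit2. It does not require this, because each signal was compared with the median of its own array. Those medians were 193.8 and 213.9 untreated and 157.1 and 163.3 after DSS.

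**Figure D1:**
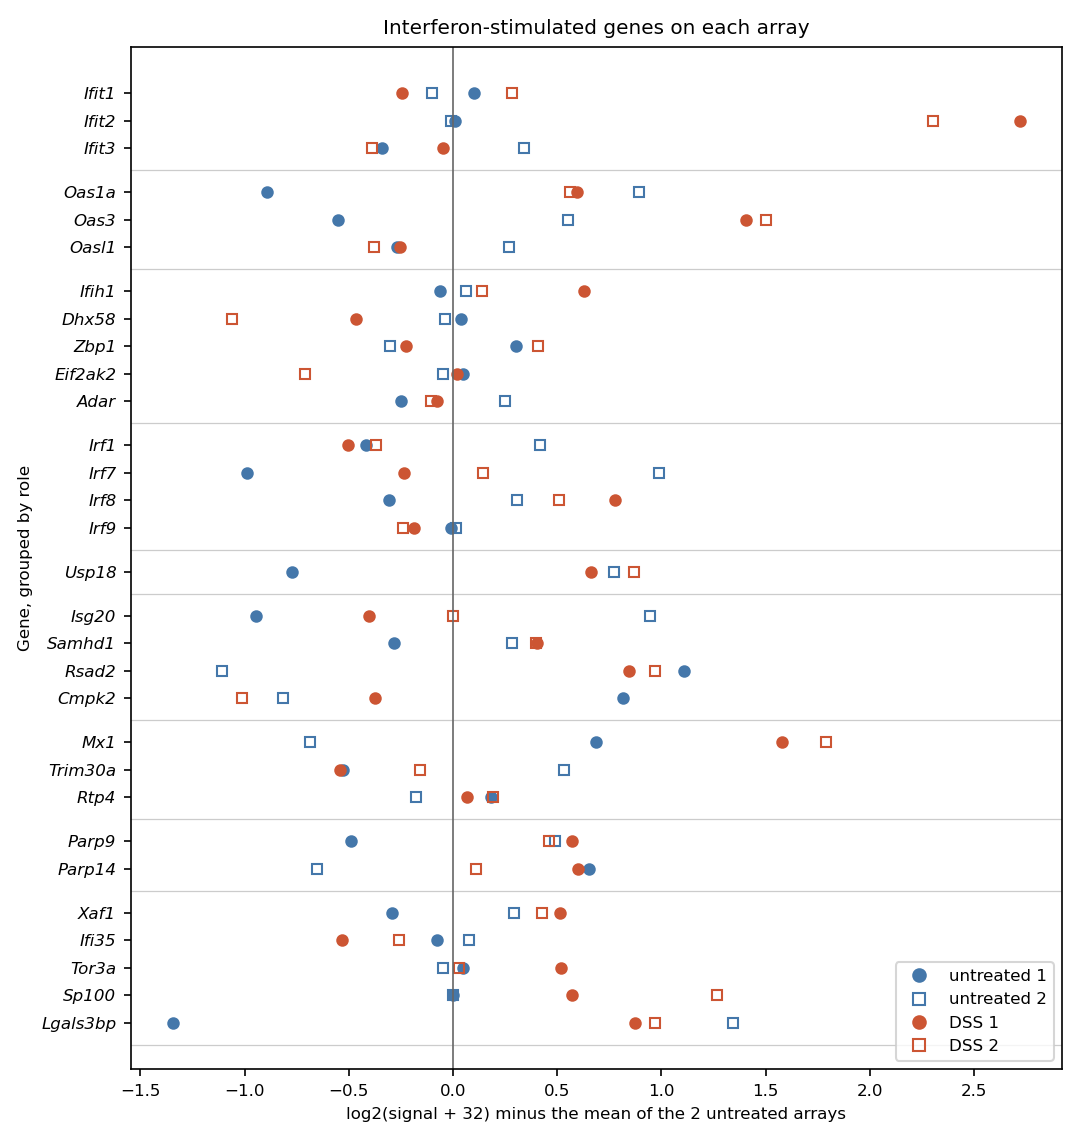
Each row is 1 of the 30 tested members, grouped by role. The x axis is log2(signal + 32) on each array minus the mean of the 2 untreated arrays; blue marks are untreated and red marks DSS, filled for replicate 1 and open for replicate 2. Ifit2 stands apart on both DSS arrays, while the untreated marks of Rsad2, Lgals3bp and Irf7 are spread wider than the DSS marks.

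**Figure D2:**
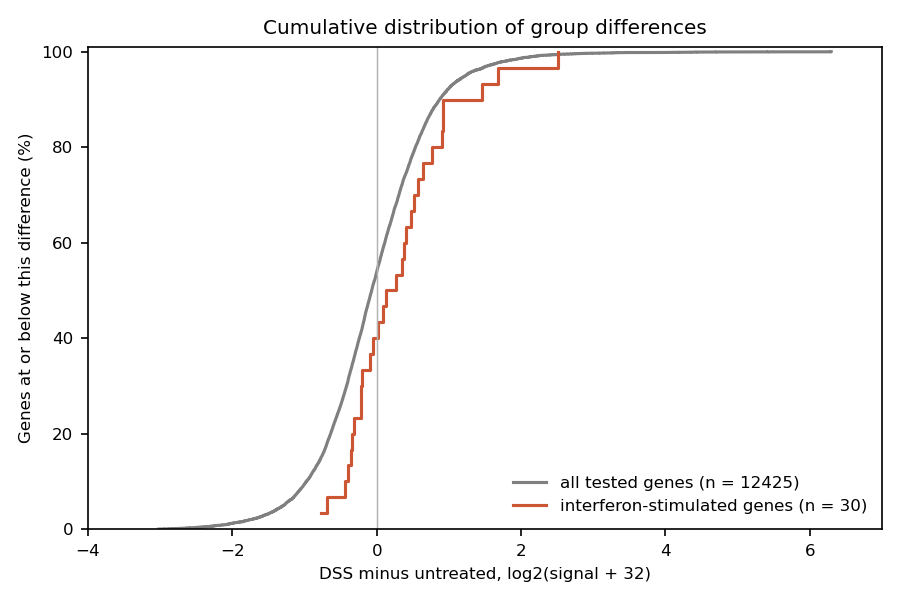
Cumulative share of genes (y axis, %) at or below each DSS minus untreated difference (x axis, log2(signal + 32)) for all 12425 tested genes in grey and the 30 members in red. The members' curve lies to the right of the grey one over most of its length, with medians of 0.20 and -0.07, and its highest step is Ifit2 at 2.51.

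The IFIT proteins bind viral RNA and block its translation. Ifit2 had signals of 36.3 and 35.5 untreated and 415 and 303 after DSS. The groups did not overlap, and the 2 untreated values were nearly equal. Its difference was 2.51 ± 0.79 (limma standard error, n = 2 per group; adjusted p = 0.648). Both untreated values lay below the medians of their arrays, 193.8 and 213.9, so the size of this difference depends on the pseudocount. It was 3.05 with a pseudocount of 8 and 2.07 with 64.

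Ifit1 and Ifit3, whose promoters each hold 2 ISRE cores, showed no such separation. Ifit1 had 689 and 594 untreated and 536 and 785 after DSS, a difference of 0.02 ± 0.41. Ifit3 differed by -0.22 ± 0.50. Both overlapped between groups, so only Ifit2 among the 3 IFIT genes had groups apart.

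The OAS enzymes make 2′-5′-linked oligoadenylates on double-stranded RNA, which activate RNase L. Oas3 had 88.9 and 228 untreated and 438 and 470 after DSS. Both DSS arrays were higher, and the untreated arrays differed more from each other than the DSS arrays did. The difference was 1.45 ± 0.58 (limma adjusted p = 0.648). Oas1a, a member of a family of close copies whose signals may include relatives, had 2299 and 7988 untreated and 6506 and 6340 after DSS. Its DSS values fell between the untreated ones, and its difference was 0.58 ± 0.60. Oasl1, an OAS-like protein that acts on Irf7 translation, differed by -0.32 ± 0.43. Oas2 and Oasl2 were below the filter, with signals of 63.4 to 402 and 44.3 to 133.

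Among the sensors and effectors of double-stranded RNA, Ifih1 (MDA5), a cytosolic sensor of long double-stranded RNA, had 1114 and 1219 untreated and 1821 and 1286 after DSS. The groups did not overlap, but the gap between the DSS arrays was larger than that between the nearest arrays of different groups, and the difference was 0.38 ± 0.40. Dhx58 (LGP2), which modulates Ifih1, had 504 and 476 untreated and 345 and 218 after DSS. It was lower on both DSS arrays, by -0.77 ± 0.46 (limma adjusted p = 0.685). Zbp1, a sensor of Z-form nucleic acid, differed by 0.09 ± 0.47, the RNA-activated kinase gene Eif2ak2 (PKR) by -0.35 ± 0.58 and Adar, the RNA-editing deaminase, by -0.09 ± 0.39. These last 3 overlapped between the groups on their brightest probe sets. A further kept probe set of Adar, at -0.35, lay below without overlap.

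The transcription factors of the pathway differed in direction. Irf8, which also directs myeloid cell development, had 1305 and 2018 untreated and 2800 and 2324 after DSS. The DSS arrays were both higher, with a difference of 0.64 ± 0.41 (limma adjusted p = 0.693), but the gene's other kept probe set gave -0.06. Irf9, the DNA-binding subunit of the ISRE complex, had 1552 and 1578 untreated and 1368 and 1320 after DSS. Its values did not overlap, although the difference was small, at -0.21 ± 0.37. After common-median scaling Irf9 differed by 0.12.

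Irf1, an early target of type II interferon that carries a GAS match, had 4610 and 8246 untreated and 4339 and 4764 after DSS, a difference of -0.44 ± 0.42. Irf7, the factor that amplifies type I interferon production, had 363 and 1520 untreated and 633 and 833 after DSS. Its DSS arrays lay between the untreated ones, and it differed by -0.05 ± 0.66. Stat2 was below the filter on both of its probe sets, with signals of 38.7 to 153. Of 4 tested factors, 1 was above, 1 was below and 2 overlapped, where all genes gave 17.2% above and 23.8% below.

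Usp18 removes the ubiquitin-like protein ISG15 from its targets and restrains the type I receptor. It had 110 and 383 untreated and 352 and 411 after DSS, and the groups overlapped. The difference of 0.76 ± 0.63 rested on untreated replicate 1, since it was -0.01 without that array. Isg15 itself was not analysed here, because its probe set carried several symbols, and the same held for the DNA exonuclease gene Trex1.

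The nucleases and nucleotide enzymes did not share a direction. Rsad2 (viperin), which makes a chain-terminating nucleotide, had 1938 and 393 untreated and 1609 and 1757 after DSS. The low untreated value set its difference of 0.91 ± 0.70 (limma adjusted p = 0.727), and a second kept probe set gave -1.37. Without untreated replicate 1 the difference was 2.01, and without untreated replicate 2 it was -0.20.

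Samhd1, which hydrolyses deoxynucleotides, had 2544 and 3778 untreated and 4108 and 4094 after DSS, a difference of 0.40 ± 0.39. Its 4 other kept probe sets ran from -0.86 to 0.67. The exonuclease gene Isg20 had 1124 and 4258 untreated and 1649 and 2194 after DSS, and differed by -0.20 ± 0.64. Cmpk2, a mitochondrial nucleotide kinase, gave -0.69 ± 0.70, with -1.09 on a further probe set. On the brightest probe sets, only Samhd1 among these 4 had groups that did not overlap, higher in DSS samples. Other kept probe sets lay below without overlap, for Samhd1 at -0.48 and -0.86, Rsad2 at -1.37 and Cmpk2 at -1.09.

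Restriction factors act on virus entry, transport or release. Mx1, a dynamin-like GTPase whose allele is defective in most laboratory mouse strains, had 198 and 56.8 untreated and 396 and 463 after DSS. Both DSS arrays were higher, and the difference was 1.69 ± 0.66 (limma adjusted p = 0.648). Trim30a, a TRIM family protein that dampens NF-kB signalling, gave -0.35 ± 0.47, with 0.24 on a further probe set. Rtp4, a receptor transporter protein, had 1961 and 1521 untreated and 1812 and 1981 after DSS, a difference of 0.13 ± 0.38. Mx2 had signals of 30.1 to 36.1 on all 4 arrays, and Bst2 (tetherin), which holds budding virus at the membrane, had 29.0 to 193, both below the filter.

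The PARP pair both had higher estimates with overlapping groups. Parp9, which acts with the ubiquitin ligase Dtx3l, had 762 and 1537 untreated and 1624 and 1501 after DSS, a difference of 0.51 ± 0.46 (limma adjusted p = 0.755). Parp14, a mono-ADP-ribosyltransferase, had 6807 and 2739 untreated and 6553 and 4661 after DSS, and differed by 0.35 ± 0.52. In each, 1 untreated array was as high as the DSS arrays and the other was lower.

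Sp100, a component of nuclear bodies, had 589 and 590 untreated and 889 and 1464 after DSS. The untreated values were almost equal and both DSS values were higher, by 0.92 ± 0.42 (limma adjusted p = 0.652). The other probe set gave 0.99 with overlapping groups, at 29.1 and 220 untreated and 273 and 166 after DSS. Xaf1, a pro-apoptotic protein, had 281 and 439 untreated and 516 and 483 after DSS, and differed by 0.47 ± 0.44. Its other probe set gave 0.34 with overlapping groups, at 109 and 341 untreated and 273 and 246 after DSS. Lgals3bp, a secreted glycoprotein that binds galectin-3, had 113 and 901 untreated and 641 and 688 after DSS, a difference of 0.92 ± 0.82 with overlapping groups. Tor3a, a torsin family ATPase, differed by 0.27 ± 0.41, and at -1.07 and 0.91 on the remaining probe sets. Ifi44 was not analysed here.

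Ifi35 gave opposite readings on different probe sets. Its brightest probe set, which can bind related transcripts, had 40376 and 44987 untreated and 29424 and 35633 after DSS, a difference of -0.40 ± 0.35. A second such probe set gave -0.41. The probe set without that ending had 51.1 and 44.7 untreated and 302 and 676 after DSS, higher on both DSS arrays by 2.61. It passed the filter through the DSS arrays alone. No direction is therefore given for Ifi35, which encodes a partner of Nmi.

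Disagreement between probe sets was common. Of 11 tested members with 2 or more kept probe sets, 4 had the same sign on all of them (Adar and Cmpk2 lower, Xaf1 and Sp100 higher) and 7 had mixed signs. The members with mixed signs were Zbp1, Irf8, Samhd1, Rsad2, Trim30a, Ifi35 and Tor3a.

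**Figure D3:**
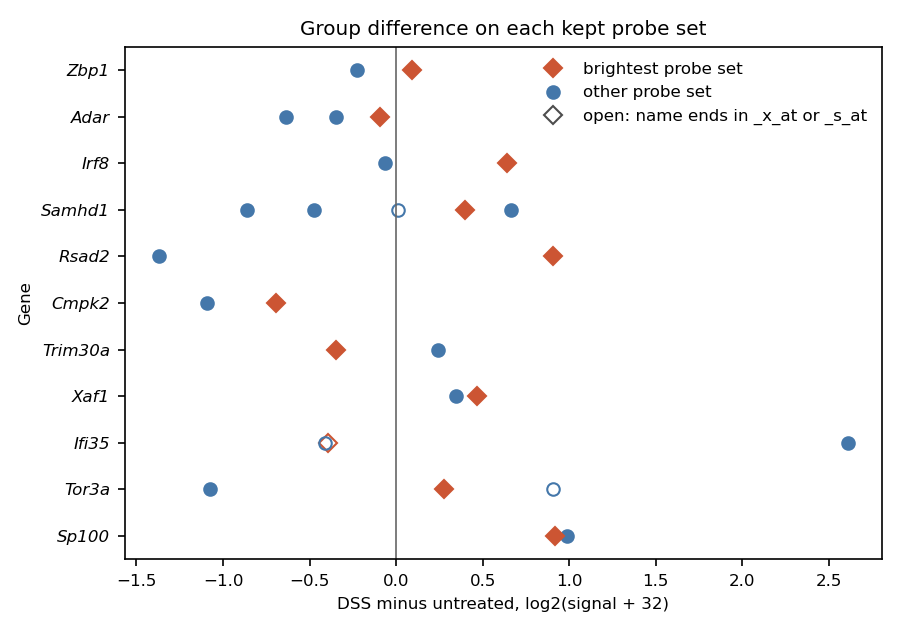
Group difference (x axis, DSS minus untreated, log2(signal + 32)) on each kept probe set of the 11 members that have more than 1 (y axis). Diamonds mark the brightest probe set and circles the others, and open marks are names ending in _x_at or _s_at. Ifi35 spans -0.41 to 2.61 and Rsad2 -1.37 to 0.91, while both marks of Sp100 and Xaf1 lie above 0.

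The untreated arrays differed from each other more than the DSS arrays did. The gap between untreated replicates exceeded the difference between groups for 19 of the 30 members, 63.3%, and for 62.1% of all tested genes. An untreated gap of more than 1 log2 unit was found for 11 members (36.7%) and 34.5% of all genes. Untreated replicate 2 was the higher for 7 of these (Oas1a, Oas3, Irf7, Usp18, Isg20, Trim30a and Lgals3bp) and replicate 1 for 4 (Rsad2, Cmpk2, Mx1 and Parp14). No member had such a gap between the DSS arrays, where the largest was 0.73, against 13.4% of all genes. A fit without an untreated array has a lone untreated sample, takes its spread from the DSS arrays alone and assumes that the lone sample varies like them. It therefore measures no untreated variation. A member that passed the threshold in such a fit is not taken as a result. Without untreated replicate 1 the members' median was 0.070, against -0.18 over all genes. Without untreated replicate 2 it was 0.20, against -0.08 over all genes.

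Differences were also set out by promoter letters. The 8 tested members with a core in a promoter had a median of 0.20, from -0.35 to 1.45, and 2 of them (Oas3 and Ifih1) were higher and 0 lower without overlap. The 14 tested members with a promoter but no core had a median of -0.07, from -0.69 to 2.51, with 5 higher and 2 lower. Over all genes the shares were 17.2% and 23.8%. For the GAS letters the medians were -0.09 over 9 members with a match and 0.02 over 13 without. These are descriptions over few genes.

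Upstream of the members, 9 of 18 listed interferon genes had no probe set with a single symbol and were not analysed here, and 8 were below the filter. The 1 tested was Ifng, the type II interferon, with 996 and 995 untreated and 1302 and 808 after DSS. The DSS values lay on both sides of the untreated ones, a difference of 0.04 ± 0.42. Ifnb1 had 152 and 128 untreated and 236 and 128 after DSS, below the filter. Receptor subunits for type I interferon differed by -0.42 ± 0.55 (Ifnar1) and -0.14 ± 0.40 (Ifnar2, other probe sets -0.44 and 0.75). Those for type II differed by -0.19 ± 0.41 (Ifngr1) and -0.80 ± 0.56 (Ifngr2, with 2.50 on its other probe set). Ifnlr1, of the type III receptor, had 350 and 354 untreated and 130 and 187 after DSS, a difference of -1.03 ± 0.54 (limma adjusted p = 0.661). Il10rb, which pairs with it and with the interleukin-10 receptor, gave 1.23 ± 0.46, with -0.88 on a further probe set. Of 6 receptor genes, 1 lay above without overlap and 2 below, where all genes gave 17.2% and 23.8%.

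Of 6 tested kinases and signal factors, Jak2 (0.58 ± 0.36) and Jak1 (0.47 ± 0.37) were higher without overlap, and their other probe sets gave 0.62 to 1.89. The other 4 overlapped, with Irf5 at -0.36 ± 0.46, where all genes gave 17.2% above and 23.8% below. Of 6 tested inhibitors, the feedback inhibitor Socs3 had 4042 and 1131 untreated and 7400 and 9643 after DSS, a difference of 1.96 ± 0.61 (limma adjusted p = 0.648). Its probe set can bind related transcripts, a second such probe set gave 2.18, and the one that does not carry that ending gave -0.46. Pias1, an inhibitor of the pathway, had 1937 and 2467 untreated and 1189 and 858 after DSS, a difference of -1.09 ± 0.40, with other probe sets from -0.97 to 0.60.

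Among 9 tested sensors and adaptors that induce interferon, 2 lay above and 3 below without overlap, against 17.2% and 23.8% of all genes. Tlr9, the endosomal sensor of unmethylated DNA, had 476 and 486 untreated and 110 and 65.4 after DSS, a difference of -2.13 ± 0.58 (limma adjusted p = 0.648). Both DSS values lay below their array medians of 157.1 and 163.3. Cgas, the cytosolic DNA sensor, gave 1.11 ± 0.49, with -0.88 on a further probe set, and the adaptor Ticam1 by -0.61 ± 0.42.

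Of 20 tested interferon-stimulated genes outside the 38, 7 lay above (35%) and 4 below (20%) without overlap, with a median of 0.42, against 17.2% and 23.8% of all genes. Nmi, the partner of Ifi35, had 890 and 817 untreated and 2177 and 1986 after DSS, a difference of 1.25 ± 0.38. Ifi30 (GILT), a lysosomal thiol reductase of antigen presentation, had 835 and 709 untreated and 1838 and 2264 after DSS, a difference of 1.37 ± 0.39. Ifi204, of a family of close copies, had 17.7 and 4.15 untreated and 324 and 415 after DSS. Its untreated values lay far below the array medians and it passed the filter through the DSS arrays alone, so the size of its difference depends on the pseudocount. None of the genes of these pathway lists was called by limma, and the smallest adjusted p was 0.648.

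**Figure D4:**
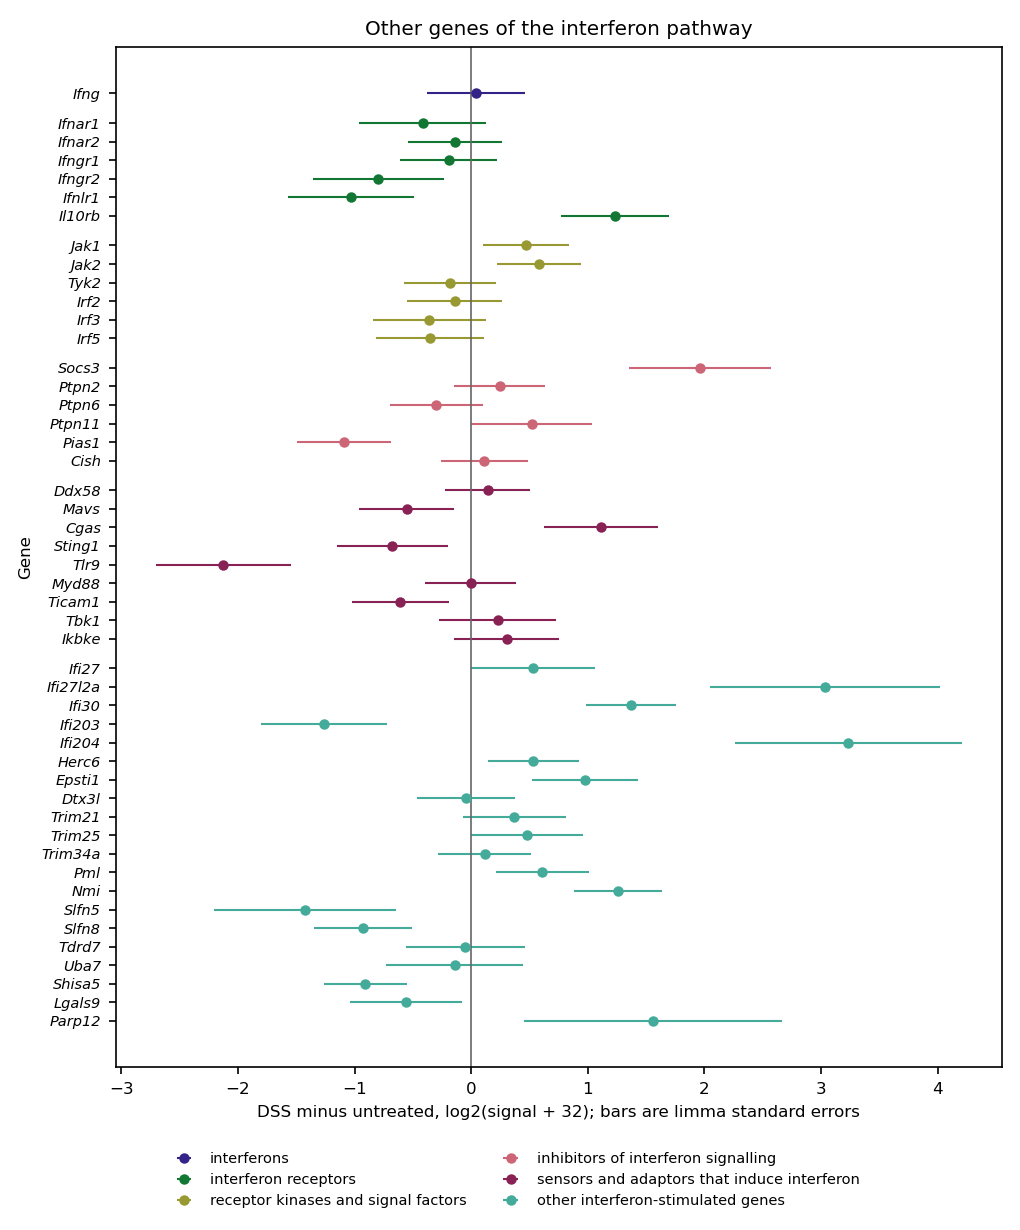
DSS minus untreated difference (x axis, log2(signal + 32)) with limma standard errors (bars, n = 2 arrays per group) for the tested genes of the pathway lists (y axis), coloured by list. Receptor genes other than Il10rb lie below 0, and Ifi204 at 3.23 and Tlr9 at -2.13 are the outermost points. The untreated signals of Ifi204 are far below the array medians, so its place depends on the pseudocount.

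Markers of macrophages moved with the same arrays. All 10 tested of 12 listed macrophage markers were higher without overlap, and Lyz2, Csf1r and Mpeg1 had the smallest p. C1qc was counted there, with 51.8 and 10.9 untreated and 478 and 641 after DSS, but it passed the filter through the DSS arrays alone. The summed signal of the 10 markers was 9518 and 3105 untreated and 62876 and 87638 after DSS. On untreated replicate 2, Lyz2 (135) and Mpeg1 (82.8) lay below the array median of 213.9, while Csf1r (1162) lay above it. Interferon-stimulated genes such as Irf8, Ifi30 and Ifi204 are also known in macrophages. The part of these cells in the members' values was not tested, and in sorted bulk samples a change in cell numbers and one in RNA per cell cannot be told apart. The 6 tested plasmacytoid dendritic cell markers, a cell type known for type I interferon, held 0 above and 2 below (Siglech and Ccr9). Siglech had 508 and 284 untreated and 37.5 and 229 after DSS. Most of the list's summed signal came from Ccr9, which gut lymphocytes also express, so the sum is not given as a level of these cells. Neutrophil markers, 6 tested of 12 listed, held 0 above and 2 below (Mmp8 and Mpo). Both of these passed the filter through the untreated arrays alone, where they were high. B and plasma cell markers held 1 above and 0 below of 4, and epithelial markers 2 above and 1 below of 11. All these marker counts stand beside shares of 17.2% above and 23.8% below over all genes.

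The labelled cell type was checked on T cell and intraepithelial lymphocyte genes, 13 of 16 tested, with sums of 471068 and 405759 untreated and 273975 and 279675 after DSS. Gzma, Itgae and Gzmb were the brightest of them, so the sums are not given as a level of these cells. Itgae differed by -1.20, with 0.52 on its other probe set. Of the 13, 2 lay above without overlap (15.4%), 4 below (30.8%) and 7 overlapped, against 17.2% above and 23.8% below over all genes. Genes of this list were bright on all arrays, but the constant regions of the gamma and delta receptor chains were not analysed here, so the list does not set these cells apart from other T cells. Mean signals of 18 hybridisation control probe sets, which are added transcripts, were 82269 and 59067 untreated and 14372 and 15271 after DSS. This follows the groups, so array processing and DSS cannot be told apart.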

How the data were processed

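Values are deposited intensities, 1 linear signal for each of 45101 probe sets on 4 one-colour arrays, and GCOS is the tool that the submitters' processing notes name. Its version is not given in the sources used. Each deposited array has a mean of 500.0 after trimming 2% at each end. Detection calls were not used, and the number of arrays limits precision.

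Probe sets with 1 platform symbol numbered 34958, with several 932 and with none 9211. By gene number 34754 matched RefSeq, which changed 0 symbols. Here log2(signal + 32) was taken with no further scaling. Alternatives varied the scaling, pseudocount, filter, probe sets, limma settings, replicate block and arrays left out. Kept probe sets exceeded their own array's median on 2 of 4 arrays or more, and the brightest kept probe set stood for its gene. Groups were compared by limma 3.58.1 in R 4.3.3 (lmFit, eBayes with trend), two-sided, with Benjamini-Hochberg adjustment over all genes at 0.05. The step was tested on simulated data. Members and lists were chosen with earlier results of these data known. Arrays were shown for members with groups apart by at least 1 log2 unit, for the smallest p in each role group, and for others chosen after their values were seen. At most 3 genes per further list were named, by smallest p, beside Ifng, Ifnb1 and the receptor genes. Ccr9, C1qc and Gzma were named beyond this rule, for their brightness or their place at the filter.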

Additional observations from a re-analysis of the deposited data

How the results depend on the processing

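Under 18 other settings, 493 of the recomputed member differences kept their direction and stayed uncalled, 32 changed direction and 8 passed the threshold, all 8 without an untreated array. Limma called 1 gene with the filter on all 4 arrays, 3 with a gene's kept probe sets averaged, 4 at adjusted p under 0.1 and 67 with the replicate number as a block. It called 0 members in each of these. The numbers are not taken as pairing, since the replicate deviations correlated at 0.052 across genes. Leaving out an array gave 0 to 1785 genes and 0 to 5 members called, 10 to 15 members above (25.5% to 36.9% of all genes), 6 to 12 below (34.3% to 47.7%), 1 to 6 at least 2-fold apart, and a median of 0.070 to 0.24. With the filter on all 4 arrays 5 of 23 members (21.7%) were above, against 18.2% of all genes, and 0 were 2-fold apart. Members 2-fold apart numbered 3 after quantile normalization, common-median scaling and cyclic loess, and 2 without _x_at and _s_at probe sets and with every kept probe set taken on its own. The 2-fold share of all genes was not counted under these other settings. The 2-fold counts are therefore not read as a result about the members. With every kept probe set on its own, 8 members had a probe set below, where 23.1% of all kept probe sets lay below, and the median was 0.020. The members' median was 0.54 after common-median scaling, with 16 above and 1 below, and 0.028 with probe sets averaged. Directions changed as follows, and the cause was not tested. Ifit3 was 0.023 after quantile normalization and 0.017 after cyclic loess, where Rtp4 was -0.028. After common-median scaling Irf7 was 0.29, Isg20 0.14, Irf9 0.12, Oasl1 0.0073, Adar 0.25 and Ifit3 0.10. With probe sets averaged Samhd1 was -0.053, Zbp1 -0.067, Rsad2 -0.23 and Ifi35 0.60. Without _x_at and _s_at probe sets Ifi35 was 2.61. Leaving out 1 array at a time gave Adar -0.34 to 0.16, Cmpk2 -1.51 to 0.12, Eif2ak2 -0.71 to 0.018, Ifit1 -0.24 to 0.28, Ifit3 -0.56 to 0.12, Irf7 -1.03 to 0.94, Isg20 -1.15 to 0.74, Lgals3bp -0.42 to 2.26, Oas1a -0.31 to 1.47, Parp14 -0.30 to 1.00, Rsad2 -0.20 to 2.01, Rtp4 -0.049 to 0.31, Trim30a -0.88 to 0.18, Usp18 -0.0085 to 1.54 and Zbp1 -0.23 to 0.41.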
